A study of Mus musculus with 24 samples.

Results

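The enzymes described here are 10 hydrolases that sit in the apical membrane of the intestinal epithelium and finish the digestion of peptides and sugars: the peptidases Anpep, Dpp4, Enpep, Mme, Mep1a and Mep1b and the disaccharidases Sis, Mgam, Lct and Treh. They were chosen by name as apical digestive enzymes, and each was found in the deposited count table once its Ensembl identifiers had been paired with symbols, so that they make up 10 of the 53465 genes listed. All 10 passed the filter on low counts that left 15044 genes to test. The libraries came from mice of the Guca2a-Venus strain, in which a guanylin promoter on a bacterial artificial chromosome drives the yellow fluorescent protein Venus, in a line that descends from a single founder. Epithelium from the duodenum, jejunum, ileum and colon of these mice on standard chow was digested to single cells, and living CD45-negative cells were sorted into a Venus-positive fraction (GFP positive in the labels) and a Venus-negative fraction. Each of the 8 groups (Duodenum, Jejunum, Ileum and Colon, each positive and negative) held 3 libraries from 3 different mice, 24 libraries in all. Every mouse carried the transgene, and the negative cells of a region were the control for its positive cells. The sort follows guanylin promoter activity and not cell type, and the age and sex of the animals were not used here.

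The brush border is the array of microvilli on absorptive enterocytes. Pancreatic enzymes cut proteins and starch in the lumen to short peptides and small sugars, and hydrolases anchored in the microvillus membrane release the single amino acids, dipeptides and monosaccharides that neighbouring transporters take up. Their transcripts are low in dividing crypt cells, rise as enterocytes mature on the villus, and are set to different levels along the gut, with lactase a proximal enzyme and the colon poor in disaccharidases. In RNA from a sorted pool, fewer cells of a type and less RNA per cell cannot be told apart.

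Guca2a, the guanylin gene that marks the sort, was higher in the positive cells of every region. Its level in CPM (counts scaled to a common library size with TMM factors) was 285 ± 94.1 against 5.28 ± 2.27 in the duodenum and 612 ± 95.7 against 94.8 ± 25.5 in the colon (mean ± SD, n = 3 each, here and below). The related hormone gene Guca2b was called higher in all 4 regions (log2 fold changes of 4.11, 3.69, 4.07 and 3.03 from duodenum to colon), and their receptor gene Gucy2c in the jejunum, ileum and colon (1.40, 0.88 and 0.85). The libraries held 7458616 to 23063124 counts on genes, and 32.3% to 80.7% of these lay on mitochondrial genes. That mitochondrial share moved with the sort in the small intestine: it was 32.3% to 46.6% in positive and 64.6% to 76.4% in negative cells of the duodenum, and 41.0% to 55.4% against 64.7% to 70.9% in the ileum. Other cell types moved with the sort as well. All 8 goblet markers were called higher in positive cells of every region and all 8 Paneth markers in those of the duodenum, jejunum and ileum. In the duodenum the summed goblet list reached 53013 to 60457 CPM against 310.0 to 434 in negative cells and the summed Paneth list 22589 to 54627 against 198 to 784. In the jejunum the goblet list summed to 1907 to 4907 CPM in positive cells and 296 to 455 in negative cells, and the Paneth list to 1605 to 16458 and 299 to 813. Ileal positive cells had 4387 to 10089.8 CPM of the goblet and 4403 to 9989.8 of the Paneth list, against 306 to 389 and 247 to 444 in negative cells. Colonic goblet sums were 4068 to 4978 and 926 to 1848 CPM, and colonic Paneth sums 44.3 to 202 and 14.3 to 254. The 7 stem and proliferation markers ran the other way, with 3 of 7 called lower in positive cells of the duodenum, 7 of 7 in jejunum and ileum alike, and 5 of 7 in the colon. The enteroendocrine markers were called lower in positive cells for 8 of 8 in the duodenum and jejunum, 7 of 8 in the ileum and 5 of 8 in the colon. Of the 4 tuft markers tested, 4 were called lower in jejunum and ileum alike, 2 in duodenal positive cells and 0 in colonic ones. The immune list summed to 31.0 CPM at most in any library, the stromal list to 19.2, the tuft list to 45.8 and the pancreatic acinar list to 0.781. The part of these shifts in the results below was not tested.

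Venus-positive cells of the jejunum and ileum carried far more brush-border hydrolase transcript than their negative counterparts, those of the duodenum did not, and those of the colon were split. In the jejunum and in the ileum all 10 members were called higher in positive cells, and in each of these regions every positive library lay above every negative library for all 10, as 22.6% of all genes did in the jejunum and 23.2% in the ileum. In the duodenum 1 of 10 was called higher (Lct) and none lower by edgeR, and 2 of 10 differed in either direction at an unadjusted p under 0.05 and 2 of 10 by DESeq2. The shares of all genes at an unadjusted p or by DESeq2 were not computed, here or below. In the colon 4 were called higher (Enpep, Mep1a, Mep1b and Sis) and 1 lower (Dpp4). The counts rest on the quasi-likelihood test of edgeR, adjusted by the method of Benjamini and Hochberg over the 15044 genes, at a threshold of 0.05, as do all calls and adjusted p-values below. Over all genes tested, 8.88% were called higher and 8.08% lower in positive cells of the duodenum, 18.3% and 25.6% of the jejunum, 17.9% and 20.6% of the ileum, and 9.31% and 3.8% of the colon. The median log2 fold change of the members was -0.062, 2.71, 3.50 and 1.31 in the 4 regions from duodenum to colon, beside -0.16, -0.28, -0.27 and 0 for all genes. Summed over the 10, the level was 9112 to 11718 CPM in positive and 1368 to 2013 in negative cells of the jejunum, 9602 to 14233 and 1063 to 1231 for the ileum, 668 to 1599 and 916 to 1257 for the duodenum, and 329.7 to 371 and 141 to 168 for the colon. The sum thus overlapped between the sorts in the duodenum alone. The highest duodenal positive sum came from Duodenum positive replicate 3, and the other positive libraries of the duodenum lay below every negative one.

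**Figure D1:**
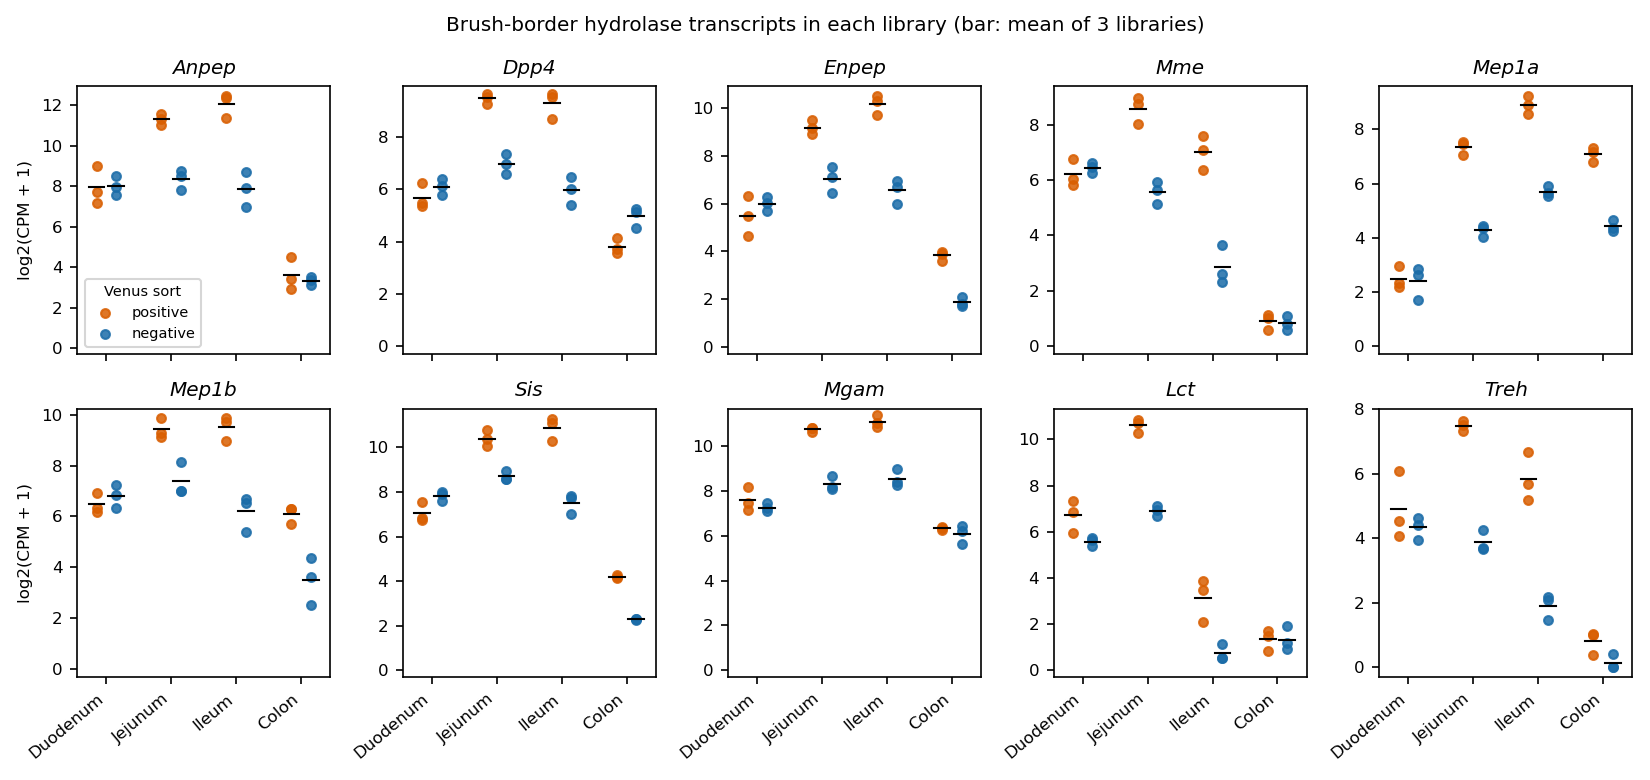
Level of each of the 10 transcripts, as log2 of CPM plus 1, in every library (points) with the mean of 3 libraries (bars) for Venus-positive (orange) and Venus-negative (blue) cells of each region. In the jejunum and ileum the orange points stand above the blue points in all 10 panels, and in the duodenum they are mixed in 8 of them.

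**Figure D2:**
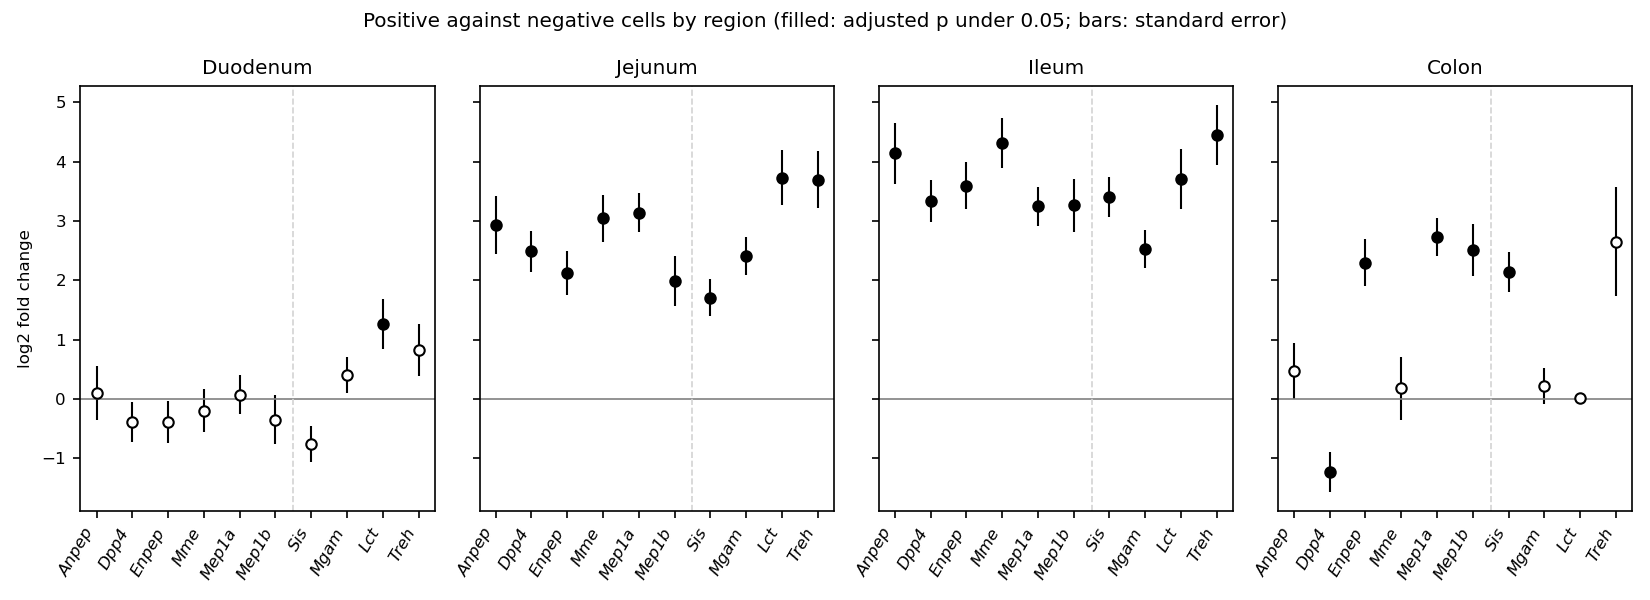
Log2 fold change of positive against negative cells for each member in each region, with the standard error as bars (none is drawn for Lct in the colon, at 0.021) and calls at an adjusted p under 0.05 filled. All 10 points are filled in the jejunum and ileum, 1 in the duodenum and 5 in the colon, where Dpp4 alone lies on the negative side with a call.

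Anpep encodes aminopeptidase N, which takes neutral amino acids one at a time from the amino end of peptides. By group mean, though not in every library, it was the most abundant member per kilobase of exon in the small intestine. The gene lies at chr7:79821803-79861059 of GRCm38, on the minus strand. Its CPM in the 3 positive libraries of the ileum was 2707, 5733 and 5290.2, and in the negative libraries 125, 415 and 239.5. In the jejunum the values were 2125, 2554 and 3038 in positive and 224, 427 and 364 in negative cells. The positive libraries stood well clear of the negative ones in both regions, with log2 fold changes of 4.14 ± 0.52 (SE, adjusted p = 4.5e-07) and 2.93 ± 0.49 (SE, adjusted p = 1.8e-05). In the duodenum positive cells gave 211, 144 and 509 and negative cells 245, 193 and 366, so that the groups overlapped and 1 positive library was the highest of the 6. The colon held little of this transcript in either sort, 12.7 ± 7.89 CPM against 9.19 ± 1.46. Neither the duodenal log2 fold change of 0.10 ± 0.46 (SE, adjusted p = 0.91) nor the colonic one of 0.47 ± 0.47 (SE, adjusted p = 0.57) was called, and without Duodenum positive replicate 3 the former was -0.60.

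Enpep encodes aminopeptidase A, which removes acidic residues and is known for cutting angiotensin II. It lies at chr3:129269175-129332720, on the minus strand. Its CPM was 832, 1257 and 1429.6 in positive and 63.1, 124 and 104 in negative cells of the ileum, and 476, 568 and 722 against 85.2, 137 and 183 in the jejunum. Both differences were called, at 3.60 ± 0.39 (SE, adjusted p = 6.5e-08) and 2.12 ± 0.37 (SE, adjusted p = 2.8e-05). Unlike Anpep, Enpep was also called higher in positive cells of the colon, at 11.2, 14.1 and 14.7 CPM against 2.52, 2.27 and 3.32, a log2 fold change of 2.30 ± 0.40 (SE, adjusted p = 1.9e-04). Its duodenal values of 43.8, 23.7 and 78.4 in positive and 63.8, 50.8 and 76.6 in negative cells overlapped.

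Dpp4 encodes dipeptidyl peptidase 4, which cuts dipeptides ending in proline or alanine from peptides and inactivates the incretin hormones. It was the member with a called difference in each direction, higher in jejunal and ileal and lower in colonic positive cells. The gene lies at chr2:62330073-62412231, on the minus strand. Positive cells had 614, 741 and 803 CPM in the jejunum and 409, 746 and 802 in the ileum, and negative cells 94.6, 124 and 165 and 41.6, 64.0 and 87.9. These groups did not overlap, and the log2 fold changes were 2.49 ± 0.35 (SE, adjusted p = 1.5e-06) and 3.34 ± 0.36 (SE, adjusted p = 5.7e-08). In the colon the order was the reverse: 12.2, 10.8 and 16.9 CPM in positive cells and 34.0, 22.2 and 37.1 in negative cells. Every positive library lay below every negative one, as 11.9% of all genes did there. The log2 fold change was -1.22 ± 0.34 (SE, adjusted p = 0.014). The colonic call was lost without Colon positive replicate 1 (adjusted p = 0.071), Colon positive replicate 2 (0.088) or Colon negative replicate 3 (0.069), with log2 fold changes of -1.16, -1.14 and -1.06. In the duodenum Dpp4 stood at 52.6 ± 19.0 and 68.7 ± 14.1 CPM. An annotated gene on the opposite strand, Gm13561, shares 232 bases of exon with Dpp4, but it had 5 counts at most in any library.

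Mme encodes neprilysin, a zinc endopeptidase that cuts inside small peptides such as enkephalins and natriuretic peptides. It lies at chr3:63241537-63386030, on the plus strand. Its highest levels were in the jejunum, at 426, 258 and 504 CPM in positive and 48.9, 33.9 and 60.4 in negative cells. In the ileum the values were 81.4, 136 and 192 and 3.92, 5.15 and 11.5, and the positive libraries were again all above the negative. Its log2 fold changes were 3.05 ± 0.40 (SE, adjusted p = 6.3e-07) in the jejunum and 4.32 ± 0.42 (SE, adjusted p = 2.3e-08) in the ileum. Duodenal cells had 75.6 ± 27.9 CPM in the positive and 86.6 ± 11.4 in the negative sort. In the colon Mme was hardly detected, with 15, 7 and 16 counts in the positive libraries and 6, 15 and 6 in the negative ones.

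Mep1a and Mep1b encode the alpha and beta subunits of meprin, a metalloendopeptidase of the astacin family in which the beta subunit is the membrane anchor and the alpha subunit can be shed. The subunit genes lie on different chromosomes, Mep1a at chr17:43474324-43502812 on the minus strand and Mep1b on the plus strand of chromosome 18 from 21061923 to 21100199. Mep1a was scarce in the duodenum, with 3.99, 3.53 and 6.75 CPM in positive and 5.12, 2.27 and 6.13 in negative cells. It was 174, 131 and 184 in jejunal positive cells, 382, 479 and 596 in ileal positive cells and 144, 159 and 109 in colonic positive cells. The negative cells of these regions had 15.3, 19.7 and 20.4, 48.8, 59.1 and 45.5 and 24.1, 18.02 and 19.7 CPM. Each positive group lay wholly above its negative group outside the duodenum, and the log2 fold changes were 3.14 ± 0.32 (SE, adjusted p = 4.7e-08) in the jejunum, 3.25 ± 0.32 (SE, adjusted p = 2.5e-08) in the ileum and 2.73 ± 0.32 (SE, adjusted p = 2.6e-06) in the colon. Mep1b did not share the low duodenal level: it was 80.2, 71.8 and 119.8 CPM in positive and 80.0, 114 and 151 in negative duodenal cells. In positive cells the jejunum had 708.3 ± 199, the ileum 756 ± 229 and the colon 68.2 ± 14.9. The sort differences of Mep1b were called in the same 3 regions, at 1.997 ± 0.42, 3.26 ± 0.44 and 2.52 ± 0.44 on the log2 scale (± SE, adjusted p = 3.2e-04, 1.6e-06 and 2.0e-04).

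Sis and Mgam encode sucrase-isomaltase and maltase-glucoamylase, paired alpha-glucosidases that split sucrose, isomaltose and the starch products maltose and maltotriose. Sis lies at chr3:72888557-72967863 on the minus strand and Mgam at chr6:40628831-40769123 on the plus strand. In the jejunum Sis was 1322, 1068 and 1741 CPM in positive and 383, 384 and 498 in negative cells, and in the ileum 2511, 1236 and 2183 and 222, 127 and 209. Both differences were called, at 1.71 ± 0.32 (SE, adjusted p = 6.4e-05) and 3.41 ± 0.34 (SE, adjusted p = 2.4e-08). In the duodenum Sis was the 1 member with every positive library below every negative one, 114, 107 and 185 CPM against 190.0, 257 and 237, as 21% of all genes were. This difference of -0.76 ± 0.31 (SE, adjusted p = 0.09) missed the threshold in the main test, and passed it by DESeq2 (-0.72, adjusted p = 0.044) and without Duodenum positive replicate 3 (-1.05, adjusted p = 0.039). Colonic Sis was low but tight, 18.5, 17.1 and 16.4 CPM in positive and 3.95, 3.96 and 3.83 in negative cells, and was called higher at 2.15 ± 0.34 (SE, adjusted p = 6.5e-05). Mgam was called in the jejunum (2.41 ± 0.32, adjusted p = 9.2e-07) and ileum (2.53 ± 0.32, adjusted p = 6.5e-07), with 1617, 1813 and 1794 and 2133, 1861 and 2704 CPM in positive cells. Its levels in the colon overlapped between the sorts, 82.8, 80.6 and 76.5 CPM in positive and 84.7, 73.2 and 48.1 in negative cells, with a log2 fold change of 0.22 ± 0.31 (SE, adjusted p = 0.7). Thus the colon had a called difference for 1 of this pair of glucosidases.

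Lct encodes lactase-phlorizin hydrolase, which splits milk sugar, and it showed the steepest change along the small intestine. The gene lies at chr1:128284756-128328318, on the minus strand. Positive cells had 114, 60.7 and 161 CPM in the duodenum, 1703, 1256 and 1812 in the jejunum and 13.6, 9.97 and 3.24 in the ileum. The negative cells of the same regions had 51.1, 40.8 and 48.4, 103, 122 and 136 and 1.16, 0.423 and 0.443. No positive library overlapped a negative one in these 3 regions, although the ileal negative values rest on 28, 12 and 8 counts. Of all genes, 16.2% lay wholly above in the duodenum, 22.6% in the jejunum and 23.2% in the ileum. The log2 fold changes were 1.26 ± 0.42 (SE, adjusted p = 0.038) in the duodenum, 3.73 ± 0.46 (SE, adjusted p = 3.3e-07) in the jejunum and 3.71 ± 0.51 (SE, adjusted p = 1.6e-06) in the ileum. The duodenal call was lost when any 1 of 5 of the 6 duodenal libraries was left out (Duodenum positive replicates 1 and 3 and Duodenum negative replicates 1, 2 and 3), with log2 fold changes of 0.90 to 1.32 and adjusted p of 0.078 to 0.18. In the colon Lct had 29, 25 and 12 counts in positive and 23, 17 and 10 in negative libraries.

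Treh encodes trehalase, the enzyme of the mushroom and yeast sugar trehalose, and lies at chr9:44673233-44686305, on the plus strand. It peaked in jejunal positive cells, at 199, 159.6 and 183 CPM against 11.8, 18.1 and 11.9 in negative cells. In the ileum it was 35.3, 50.2 and 100.5 against 1.77, 3.53 and 3.22. Treh had the largest fitted sort difference of the 10 in the ileum, 4.44 ± 0.51 (SE, adjusted p = 1.2e-07), and was 3.70 ± 0.48 (SE, adjusted p = 6.4e-07) in the jejunum. In the duodenum 1 positive library stood apart, at 22.4, 15.8 and 66.4 CPM against 14.5, 20.5 and 23.9 in negative cells. Without it, Duodenum positive replicate 3, the log2 fold change of 0.83 ± 0.44 (SE, adjusted p = 0.2) became -0.044, and with scaling by library size alone it was called (adjusted p = 0.045). In the colon the positive libraries held 4, 14 and 16 counts and the negative ones 0, 0 and 4. The colonic log2 fold change of 2.65 ± 0.91 (SE) was not called (adjusted p = 0.052). It was called by DESeq2 (adjusted p = 0.020) and without Colon positive replicate 1 (0.033). Without Colon negative replicate 3, which held the 4 negative counts, it was 6.61 and called (adjusted p = 0.016). At these counts its size is poorly determined.

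The libraries carry either of 2 i5 indices, each on 12 libraries and on both sorts of every region. For the duodenum and jejunum the second index, and for the ileum and colon the first, was on 1 library of each sort. The means given below for these are single values, so they compare 1 library with 1 library. Within each index all 10 members had a higher mean log2 CPM in positive cells of the jejunum and ileum, with median differences of 2.78 and 2.83 in the jejunum and 3.54 and 3.37 in the ileum for the first and second index. In the duodenum 4 of 10 were higher within the first index and 7 of 10 within the second, and in the colon 6 and 8.

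The sort difference itself differed between regions. Tested as an interaction in the same fit, it was larger in the jejunum than in the duodenum for 10 of 10 members, where 14.6% of all genes differed, and larger in the ileum than in the duodenum for 10 of 10, where 10.5% did. The colon exceeded the duodenum for 4 members (Enpep, Mep1a, Mep1b and Sis), against 3.62% of all genes. It fell short of the jejunum for 5 (Anpep, Dpp4, Mme, Mgam and Lct), against 9.69%, and of the ileum for the same 5, against 2.79%. Between ileum and jejunum no member was called by edgeR, where 0.266% of all genes were, with 4 of 10 at an unadjusted p under 0.05 and 1 of 10 by DESeq2. Sis came nearest, its sort difference being 1.70 ± 0.44 (SE) larger on the log2 scale in the ileum (adjusted p = 0.094). These comparisons share libraries where they share a region. The members with a called rise in colonic positive cells were thus an aminopeptidase, both meprin subunits and sucrase-isomaltase. None of these 4 differed from the ileum or the jejunum in its sort difference by call. Between colon and ileum, however, 7 of 10 members differed at an unadjusted p under 0.05 and 6 of 10 by DESeq2. Enpep (-1.30, unadjusted p = 0.020) and Sis (-1.26, unadjusted p = 0.0091) were among those 7. For the counts at an unadjusted p or by DESeq2 the share of all genes was not computed, so no background stands beside them. The call for Anpep between colon and jejunum was lost without Jejunum negative replicate 1 or Colon positive replicate 1.

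Within the positive cells neighbouring regions were compared in turn. From duodenum to jejunum 10 of 10 were higher, against 33.2% of all genes called in either direction. The largest of these was Mep1a at 5.11 ± 0.36 (SE, adjusted p = 8.1e-11) and the smallest Treh at 2.38 ± 0.45 (SE, adjusted p = 1.7e-04). From jejunum to ileum 4 of 10 differed, against 5.15% of all genes. Mep1a rose by 1.57 ± 0.30 (SE, adjusted p = 0.001), while Lct (-7.47 ± 0.55, adjusted p = 1.3e-10), Mme (-1.54 ± 0.37, adjusted p = 0.011) and Treh (-1.54 ± 0.44, adjusted p = 0.034) were lower. The count fell to 2 without Ileum positive replicate 1, where Mme and Treh were no longer called (adjusted p = 0.090 and 0.19). Treh also lost its call without Jejunum positive replicate 1 (0.11), Jejunum positive replicate 2 (0.056) or Ileum positive replicate 2 (0.13). From ileum to colon 10 of 10 were lower, against 21.7% of all genes, from -8.49 for Anpep to -1.83 for Mep1a.

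The order of the regions in positive cells was ileum, jejunum, duodenum, colon for Anpep, Enpep, Mgam and Sis by their mean CPM, as it was for Mep1b, and jejunum, ileum, duodenum, colon for Dpp4, Mme and Treh. For Anpep, Dpp4, Mep1b and Sis the ileal and jejunal libraries overlapped and were not called. Enpep (0.99 ± 0.36, adjusted p = 0.11) and Mgam (0.36 ± 0.31, adjusted p = 0.63) were not called either, although every ileal library lay above every jejunal one. The share of all genes separated in this way was not computed. The jejunal and ileal means were 719 ± 96.6 and 652 ± 213 CPM for Dpp4 and, for Mep1b, 708.3 ± 199 and 756 ± 229. Mme and Treh did not differ by call between ileum and duodenum (0.85 ± 0.37 (SE, adjusted p = 0.089) and 0.83 ± 0.44 (SE, adjusted p = 0.16)), nor Mep1b between colon and duodenum (-0.41 ± 0.41 (SE, adjusted p = 0.61)). Lct ran jejunum, duodenum, ileum, colon. Mep1a alone ran ileum, jejunum, colon, duodenum, its jejunal and colonic libraries overlapping at 131 to 184 and 109 to 159 CPM.

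In the negative cells fewer members were called between duodenum and jejunum and between ileum and colon than in the positive cells, and more between jejunum and ileum. The counts themselves were not compared by a test. Gene by gene, the difference between the sorts in a regional change is the interaction given above. It was called for 10 of 10 members between duodenum and jejunum, for 5 between ileum and colon and for 0 between jejunum and ileum. From duodenum to jejunum 1 of 10 differed, Mep1a at 2.04 ± 0.32 (SE, adjusted p = 3.9e-04), against 0.725% of all genes. The count was 2 by DESeq2, with no filter on low counts and with the compared libraries alone. From jejunum to ileum 5 of 10 differed, against 2.11%: Mep1a was higher by 1.47 ± 0.31 (SE), and Lct (-7.45), Mme (-2.81), Treh (-2.29) and Sis (-1.18) were lower. The call for Sis (adjusted p = 0.037) was lost without any one of the 6 libraries compared, with an adjusted p of 0.29 without Ileum negative replicate 2. From ileum to colon 8 of 10 were lower, against 5.24%, and Dpp4 (-1.05 ± 0.33, adjusted p = 0.062) and Lct (1.19 ± 0.54, adjusted p = 0.26) were not called. Lct, Mme, Treh and Mep1a therefore moved in the same direction from jejunum to ileum in both sorts.

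The region pattern can be set beside the DNA before each start site. The 250 bases upstream of the start were taken from RefSeq promoters of GRCm38.p6, which held 9 of the 10 members (all but Mep1b). Short motifs, 4 in all, of factors known to act on enterocyte genes were searched on both strands. GTTAAT stood for an HNF1 half-site. TTTATG stood for a CDX site. AGATAA stood for a GATA site. CAAAGT stood for an HNF4 half-site. A match on the opposite strand reads as the reverse complement. None of them overlaps another in the sequences shown. Of all 32851 promoters of this length, 6.43% held the HNF1 motif, 10.8% the CDX motif, 9.99% the GATA motif and 12.6% the HNF4 motif. Sis and Lct are shown because their transcripts part between jejunum and ileum, Sis being high in both and Lct nearly lost in the ileum. Each is written 5′ to 3′ on the strand of the gene, the minus strand for both, ending at the base before the start, with motif matches in capitals. They lie at chr3:72967864-72968113 and chr1:128328319-128328568.
Sis: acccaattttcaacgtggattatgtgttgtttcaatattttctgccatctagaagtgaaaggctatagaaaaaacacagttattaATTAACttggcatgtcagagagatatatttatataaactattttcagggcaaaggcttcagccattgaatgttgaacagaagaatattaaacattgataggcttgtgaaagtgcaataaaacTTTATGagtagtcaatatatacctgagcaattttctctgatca
Lct: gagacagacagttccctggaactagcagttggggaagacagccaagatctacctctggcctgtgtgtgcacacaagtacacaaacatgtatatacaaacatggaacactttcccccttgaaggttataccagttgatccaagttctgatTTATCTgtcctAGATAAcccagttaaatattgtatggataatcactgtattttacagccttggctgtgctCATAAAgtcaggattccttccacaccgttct

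In Sis the capitals mark an HNF1 match from 165 to 160 bases before the start and a CDX match from 43 to 38 bases before it. In Lct they mark GATA matches at 101 to 96 and 90 to 85 bases and a CDX match at 31 to 26 bases before the start. In Mep1a, whose window lies at chr17:43502774-43503023, the single match is an HNF4 half-site 29 to 24 bases before the start. Sis and Lct were the 2 members of 9 with a CDX match, 3 of 9 held a GATA match (Dpp4, Mgam and Lct), 3 an HNF4 match (Mme, Mep1a and Treh) and 1 an HNF1 match (Sis). A member counted if any of its windows held the motif, while the shares over all promoters count each window. Mme had more than 1 window, and its match lay in 1 of them. The Enpep window held none of the 4, and the Anpep window, at chr7:79848211-79848460, none either. The Anpep window lies inside the annotated span of the gene, before an internal start, and its GC content was 72.8% against 31.6% for Sis. A match is a description of letters, and no binding was measured.

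Scaling to the cytoskeleton of the microvillus asked whether the enzymes moved with the brush border as a structure. Counts were refitted relative to the sum of 15 brush-border structure genes, among them villin (Vil1), myosin 1A (Myo1a), plastin 1 (Pls1) and the intermicrovillar cadherins Cdhr2 and Cdhr5. These genes were themselves higher in positive cells, 13 of 15 by call in the duodenum and 14 of 15 in each other region. The microvillar cadherins Cdhr5 (1.63 and 2.70 on the log2 scale) and Cdhr2 (1.35 and 2.62) led in the duodenum and colon with Mtss1 (1.41) and Eps8l2 (2.15), and the bundling protein espin (Espn, 3.26 and 3.84) was among the largest in the jejunum and ileum. Their sum was 1628 to 2396 CPM in positive and 842 to 1025 in negative cells of the duodenum, 8248 to 9796 and 1062 to 1817 for the jejunum, 5815 to 9523 and 828 to 1204 for the ileum, and 1753 to 2584 and 513 to 847 for the colon. On this scale the all-gene median log2 fold change fell to -1.25, -3.01, -3.25 and -1.78 from duodenum to colon, and 2.45%, 0.273%, 0.578% and 0.771% of all genes were called higher and 40.7%, 80.6%, 84.7% and 62.6% lower.

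Relative to structure genes, 9 of 10 members were not called in the jejunum and Sis alone was lower, at -1.05 ± 0.40 (SE, adjusted p = 0.019). Lct (0.99, adjusted p = 0.05003) and Treh (0.997, adjusted p = 0.051) lay just outside the threshold on the higher side, and Mep1b was at -0.77 ± 0.47 (SE, adjusted p = 0.13). In the ileum Anpep (1.09 ± 0.44 (SE, adjusted p = 0.025)), Mme (1.13 ± 0.44 (SE, adjusted p = 0.02)) and Treh (1.34 ± 0.48 (SE, adjusted p = 0.012)) were higher and the other 7 were not called. In the duodenum 7 of 10 were lower (Anpep, Dpp4, Mme, Enpep, Mep1a, Mep1b and Sis), from -1.89 for Sis to -1.06 for Mep1a, where 40.7% of all genes were lower and the all-gene median was -1.25. In the colon Mep1a was higher at 0.94 ± 0.32 (SE, adjusted p = 0.013) while Dpp4 (-2.97), Lct (-1.72), Mme (-1.57), Mgam (-1.52) and Anpep (-1.20) were lower. The duodenal count was 3 without Duodenum positive replicate 1 and 4 without Duodenum negative replicate 3, and the lower colonic count 3 without Colon positive replicate 2 or Colon negative replicate 2. The duodenal call for Anpep (adjusted p = 0.0498) was lost in most omissions of a single library. In the ileum all 3 calls were lost without Ileum negative replicate 1 (adjusted p = 0.14 for Anpep, 0.11 for Mme and 0.063 for Treh), where Lct was called instead (1.54, adjusted p = 0.023). The call for Mme was also lost without Ileum negative replicate 2 (0.11) or Ileum positive replicate 3 (0.075), that for Treh without the latter (0.081) and that for Anpep without Ileum positive replicate 2 (0.064). The higher colonic count was 3 without Colon negative replicate 3. In the jejunum 1 or 2 members were called higher in 13 of the 24 omissions of a single library. The jejunal call for Sis was lost without Jejunum positive replicate 1 or 2 or Jejunum negative replicate 1 or 3.

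**Figure D3:**
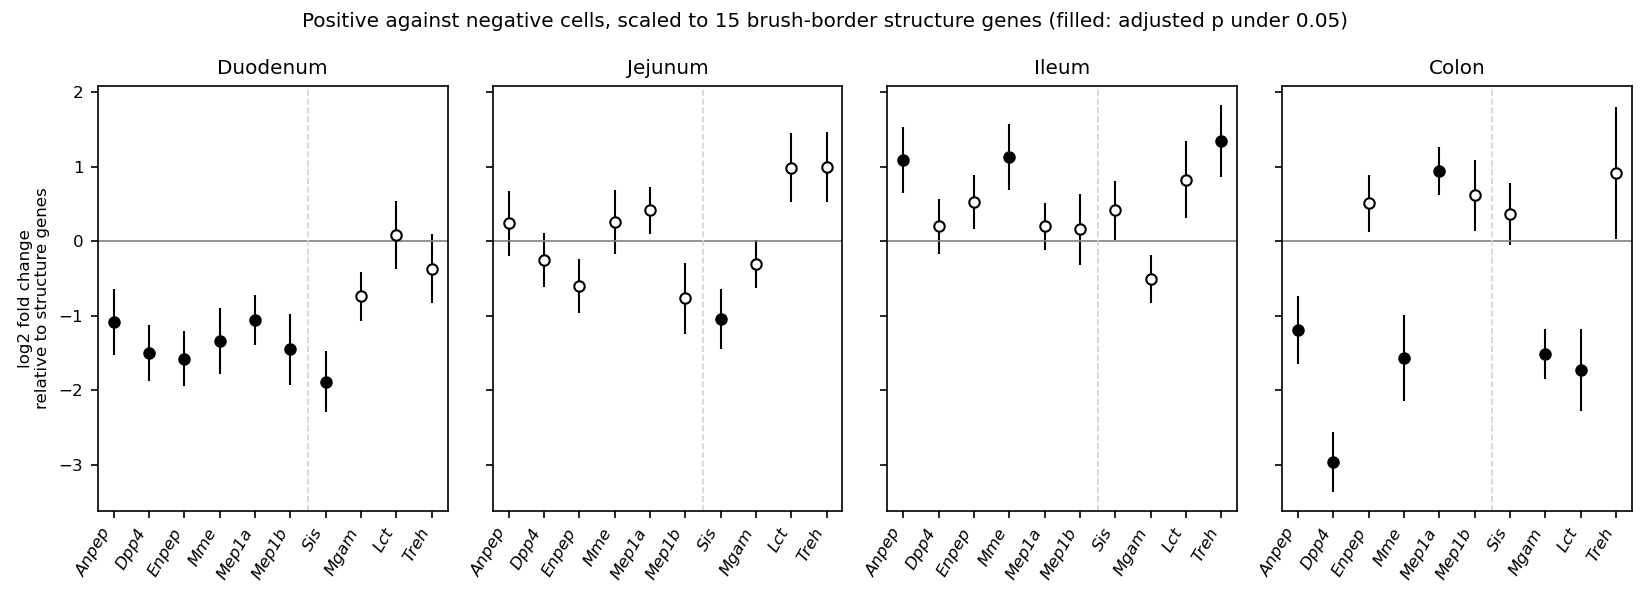
Log2 fold change of positive against negative cells for each member, relative to the sum of 15 brush-border structure genes, with the standard error as bars and calls at an adjusted p under 0.05 filled. Filled points lie below 0 for 7 members in the duodenum and 5 in the colon, and above 0 for 3 in the ileum and 1 in the colon.

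Levels of different genes were compared per kilobase of exon (RPKM, from the union of annotated exons), which gives the makeup of the set. Anpep supplied the largest mean share of the summed RPKM in every small-intestinal group, 31.8 ± 5.51% in duodenal, 32.2 ± 3.02% in jejunal and 44.2 ± 8.05% in ileal positive cells. Its level there was 69.6 ± 46.9, 622 ± 111 and 1107 ± 395 RPKM. In colonic positive cells the meprins supplied most, 46.2 ± 7.62% from Mep1a and 30.1 ± 5.40% from Mep1b, while Anpep gave 3.60 ± 2.31%. Colonic negative cells were made up differently, with 29.4 ± 8.35% from Mgam, 22.1 ± 2.45% from Mep1a and 18.1 ± 3.59% from Dpp4, against 2.48 ± 0.701% from Dpp4 in colonic positive cells. Lct supplied 12.9 ± 1.99% of the jejunal positive sum and 5.81 ± 0.574% of the jejunal negative sum, and under 1% in both ileal groups. Shares are set by all 10 genes at once, and a rise of one lowers the others.

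**Figure D4:**
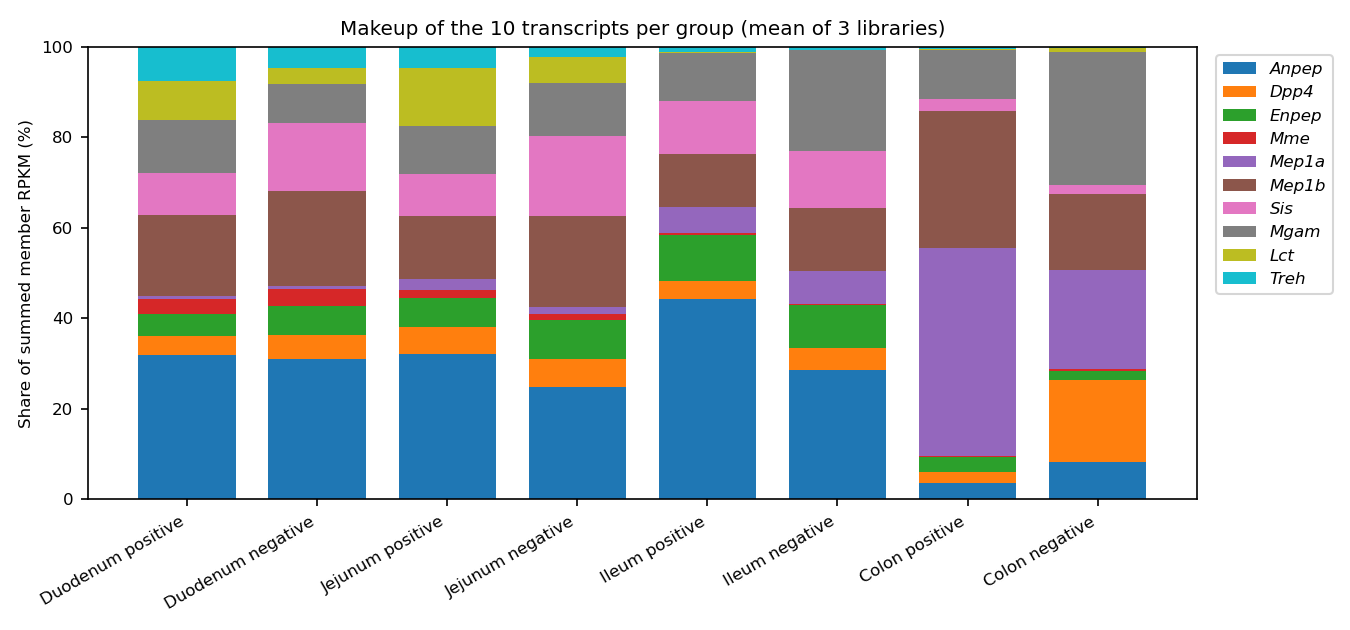
Mean share of each transcript in the summed RPKM of the 10 members, in percent, for each group of 3 libraries. Anpep (blue) takes 24.9% to 44.2% in the small-intestinal groups, while the meprins (purple and brown) take most of the colonic positive bar.

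Per length, in RPKM, the 6 peptidases outweighed the 4 disaccharidases in all libraries but 1. The log2 ratio of their summed RPKM was 0.70, 0.73 and 0.85 in duodenal positive cells and 1.09, 0.83 and 1.38 in negative cells. In the jejunum it was 0.52, 0.85 and 0.86 in positive and 0.46, 0.72 and 1.08 in negative cells. The jejunal sorts overlapped, and so did the duodenal ones at 0.83 to 0.85. The ileum spread widely, at 1.002, 2.47 and 1.79 in positive cells and -0.16, 1.71 and 1.18 in negative cells, the 1 library of all 24 with more disaccharidase than peptidase being among the latter. In the ileum the positive library with the lowest Anpep had the highest Sis, and the same was so among the negative libraries, as the values above show. These libraries also had the lowest ratio of their sort and were the only ileal ones with the first i5 index. Any part of the index in this spread was not tested. In the colon the ratio was 2.42, 2.74 and 2.63 in positive and 0.70, 0.80 and 1.77 in negative cells, with no overlap. No test was run on these ratios, which depend on the exon lengths used: with CPM their means were lower in every group, and below 0 in jejunal (-0.10) and ileal (-0.11) negative cells.

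**Figure D5:**
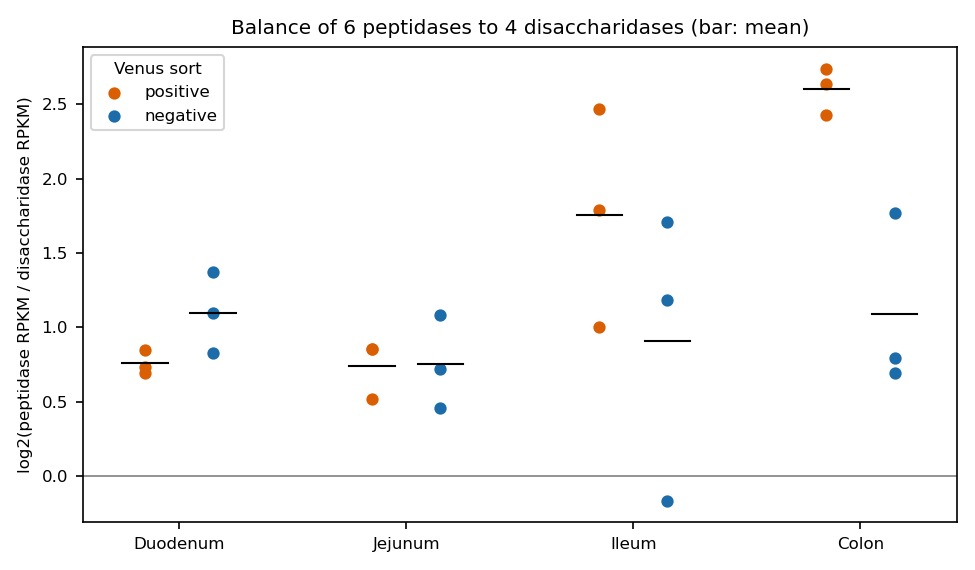
Log2 ratio of the summed RPKM of 6 peptidases to that of 4 disaccharidases in each library (points) with the mean of 3 libraries (bars), for Venus-positive (orange) and Venus-negative (blue) cells. The colonic positive libraries sit between 2.42 and 2.74, above every colonic negative library, and the ileal libraries spread from -0.16 to 2.47.

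Other genes of the same work were read from lists chosen by function. Of 19 further brush-border and digestive hydrolases, 17 could be tested, and of these 12 were called higher in jejunal and 13 in ileal positive cells, 6 in the duodenum and 5 in the colon, with none lower. In the jejunum the largest were the phosphodiesterase Enpp3 at 3.90 (adjusted p = 1.7e-08), alkaline sphingomyelinase Enpp7 at 3.68 (adjusted p = 7.5e-07), angiotensin-converting enzyme Ace at 3.63 (adjusted p = 4.7e-08) and gamma-glutamyltransferase Ggt1 at 3.58 (adjusted p = 1.8e-07). Among the largest in the ileum were Enpp7 (5.33), Ggt1 (4.40) and intestinal alkaline phosphatase Alpi (4.31). Carboxypeptidase M (Cpm) led the called genes of the duodenum at 3.68 (adjusted p = 7.6e-06), followed by Enpp7 (2.40), Enpp3 (2.16) and the serine protease Tmprss2 (1.56). In the colon Ggt1 (2.84), the dipeptidase Dpep1 (2.69), Naaladl1 (2.46) and Alpi (1.81) were the largest of the called genes. The list's median log2 fold change was 0.85, 3.06, 3.79 and 0.60 from duodenum to colon.

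Of 10 genes listed as cytosolic peptidases, 5 were called higher in jejunal and 5 in ileal positive cells, 1 in the colon and none in the duodenum. These were led by prolidase Pepd at 2.84 in jejunal and 3.30 in ileal cells and by the dipeptidase Cndp2 at 2.75 and 3.25, with Acy3, Lap3 and Xpnpep1 between 1.92 and 2.60 in both regions, while the other 5 (Npepps, Dpp3, Tpp2, Rnpep and Acy1) lay between -0.33 and 0.84 there and were not called. The colonic one was Cndp2 at 1.44. Of 13 sugar and peptide transporters, 11 were higher in the jejunum, 12 in the ileum, 2 in the colon and 1 in the duodenum. The neutral amino acid transporter Slc6a19 (3.55 and 4.52), the peptide transporter Slc15a1 (3.49 and 4.25) and the glucose transporter Slc2a2 (2.98 and 4.41) were among the largest in both regions, and the colonic calls were the paired cystine transporter genes Slc3a1 (2.89) and Slc7a9 (2.52). Against the list, the acidic amino acid transporter Slc1a1 was lower in positive cells of the duodenum at -1.56 (adjusted p = 0.024) and of the jejunum at -1.78 (adjusted p = 0.0021). In the ileum it was called higher instead, at 1.10 (adjusted p = 0.046). Cltrn, a partner of Slc6a19, was also called lower in the jejunum (adjusted p = 0.018), with 57 counts at most in any library and 0 in 12 of them.

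Among 13 transcription factors of enterocyte genes, 6 were called higher in jejunal positive cells and 1 lower, 6 higher in ileal, 5 higher in colonic and 2 higher in duodenal positive cells. Klf4 was higher in every region, from 2.01 in the colon to 3.45 in the ileum, and stood at 3.11 in the duodenum. All 8 goblet markers were called higher in every region too, and which cell type carried Klf4 was not tested. Maf, a factor of villus enterocytes, was higher in the jejunum (2.76), ileum (3.74) and colon (3.29). Prdm1 was higher in the same 3 regions (2.40, 4.24 and 3.18), and Gata4 in the ileum (1.40) and colon (2.49). Hnf4a was higher by 1.46, 1.42 and 1.25 in jejunum, ileum and colon and Hnf4g by 1.29 in the jejunum and 2.44 in the ileum, while Klf5, a factor of crypt cells, was lower in the jejunum at -0.66 (adjusted p = 0.035). Cdx1 was the other duodenal call, at 0.85 (adjusted p = 0.025). Of 9 enterocyte markers, 9 were called higher in the jejunum and in the ileum, 4 in the colon and 3 in the duodenum, where the fructose enzyme Khk (-1.26 (adjusted p = 0.0048)) and the dehydrogenase Adh6a (-1.11 (adjusted p = 0.041)) were lower. The enterocyte list summed to 23821 to 29093 CPM in jejunal positive and 2023 to 2761 in jejunal negative cells, and to 2306 to 4422 and 1376 to 1989.7 in the duodenum.

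The members were also compared with each other over the 24 libraries, which share their groups, so that these values are descriptions. Pearson's r of log2 CPM with the mean of the standardised members was 0.42 for Mep1a and 0.65 for Lct, and 0.90 to 0.97 for the other 8. Among pairs, r ran from 0.97 for Enpep with Sis down to -0.16 for Mep1a with Lct. Among the 5 genes outside the set whose pattern was most like that mean were Clca4b (r = 0.99), Apoa1 (0.98), Pdzk1 (0.98) and Slc5a1 (0.98). Clca4b belongs to a family of close copies, so its counts may be less certain than the others, which was not tested. Slc5a1 encodes the sodium-glucose cotransporter that takes up the sugars released by the disaccharidases, and was 1061 ± 255.4 CPM in jejunal positive and 220.1 ± 69.1 in jejunal negative cells. Of these 4, Pdzk1 alone was called higher in duodenal positive cells (1.67, adjusted p = 0.0053) and none was called in the colon.

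Cut into stretches of 50 bases, the length of the reads, the annotated transcripts of Anpep, Enpep, Mep1a and Lct shared none with another gene, and the other 6 shared 0.148% to 2.92%, the most for Dpp4 with its opposite-strand neighbour. No stretch was shared between members.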

How the data were processed

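The authors deposited counts of reads per Ensembl gene for 24 libraries, raw and not normalised, made with STAR (version 2.5.1) on GRCm38 from strand-keeping total RNA libraries. The strand setting of the counting is not given in the sources used here. Rows that name no gene held 39.4% to 75.8% of a library's total and were left out. GENCODE M21 named 53274 of 53465 genes. Genes were filtered by filterByExpr (minimum count 10, minimum total 15), scaled by TMM and fitted over all 24 libraries with 8 group terms in edgeR (version 4.0.16, R 4.3.3; common dispersion 0.185), a standard error being the fold change over the root of F. CPM and RPKM were computed from these factors and M21 exon lengths. Between replicates of a group, 24 pairs, the chi-square per degree of freedom over genes was 23.7 to 154.3. Counting noise alone gives about 1 on this scale of squared differences. A count of 3 corresponds to 0.106 to 0.360 CPM, for counting error only. Each group holds libraries of 3 mice, and the mouse of a library is not named in its labels. Alternatives were DESeq2 (version 1.42.0), RLE factors, library size alone, other filters, protein-coding genes, the i5 index as a covariate, the compared libraries alone and each library left out. The fits were tested on simulated data. Named were all members, up to 4 genes per further list and region with the largest called change and any called against most of its list, the 5 genes most like the members, and Guca2a, Guca2b and Gucy2c. A gene that this rule also names is not reported here. The members and lists were chosen with earlier results of these data known. Colonocyte and regional identity genes were read too: 0, 2, 5 and 6 of 6 and 0, 1, 3 and 3 of 8 were called higher in positive cells from duodenum to colon. Called lower were 2 colonocyte markers in the duodenum and 1 in the jejunum, and 1 regional identity gene in the jejunum.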

Additional observations from a re-analysis of the deposited data

Results flagged for a closer look

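For 34 combinations of a member and a pair of regions, the difference between positive and negative cells in one region differed from that in another by the interaction test in edgeR (adjusted p under 0.05). Values are differences between log2 fold changes. Jejunum exceeded duodenum by 2.82 for Anpep, 2.88 for Dpp4, 3.25 for Mme, 2.51 for Enpep, 3.07 for Mep1a, 2.34 for Mep1b, 2.46 for Sis, 2.01 for Mgam, 2.47 for Lct and 2.87 for Treh. Ileum exceeded duodenum by 4.04 for Anpep, 3.72 for Dpp4, 4.52 for Mme, 3.99 for Enpep, 3.18 for Mep1a, 3.61 for Mep1b, 4.16 for Sis, 2.13 for Mgam, 2.45 for Lct and 3.62 for Treh. Colon exceeded duodenum by 2.69 for Enpep, 2.66 for Mep1a, 2.86 for Mep1b and 2.90 for Sis. Colon against jejunum gave -2.46 for Anpep, -3.72 for Dpp4, -2.87 for Mme, -2.19 for Mgam and -3.71 for Lct. Colon against ileum gave -3.67 for Anpep, -4.56 for Dpp4, -4.14 for Mme, -2.31 for Mgam and -3.69 for Lct. The mitochondrial share of counts and the goblet and Paneth markers moved with the sort by region as well, and their part in these differences was not tested. Groups of 3 libraries were not searched for single outlying libraries.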

How the results depend on the processing

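No paired analysis was run because the labels do not name the mouse of each library. Replicate numbers follow the order in which the libraries are listed and name no animal. All 10 members were called higher in positive cells of the jejunum and ileum under every alternative that tested them. Of single values, 876 kept direction and side of the threshold under other settings, 9 reversed, 6 gained and 8 lost a call, and 3527, 22, 33 and 66 did so with a library left out. The latter tally counts the omission of every library for every value. Libraries outside the compared groups enter a value only through the shared spread and scaling. Most values so counted could therefore hardly change, and the tally does not measure robustness. The duodenal count of higher members (1) was 2 with library size alone and 0 at an adjusted p of 0.01 or with at least 10 counts in every library, a filter that drops Lct, Mme and Treh. The lower count (0) was 1 by DESeq2. The lower colonic count (1) was 0 at an adjusted p of 0.01. The ileum against jejunum interaction (0) was 1 by DESeq2 or without the filter, and the negative jejunum against duodenum count (1) was 2 by DESeq2, without the filter and with the compared libraries alone. With at least 10 counts in every library, the colon interactions with jejunum and ileum (5 each) were 3 each, and the ileum against jejunum counts were 1 in positive and 1 in negative cells (4 and 5). Scaled to Vil1 alone, 2 members were lower in the jejunum. In CPM the mean peptidase to disaccharidase log2 ratios, positive and negative, were 0.16 and 0.42 in duodenal, 0.067 and -0.10 in jejunal, 0.83 and -0.11 in ileal and 1.30 and 0.061 in colonic cells.

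Reversed values, none of them called, were Lct in the colon (-0.079 by DESeq2, -0.069 with RLE factors, -0.039 with library size alone, -0.064 with protein-coding genes, -0.12 with the compared libraries alone) and, with library size alone, Dpp4 (0.067), Mme (0.28), Enpep (0.059) and Mep1b (0.10) in the duodenum. That scaling moved the all-gene median by 0.43 in the duodenum and 0.30 in the jejunum. RLE factors moved it by 0.12 in the jejunum. Treh in the colon was called by DESeq2, without the filter, with the i5 covariate and in 9 of the 24 omissions of a single library (adjusted p of 0.016 to 0.22 over the 24), which took the colonic count of higher members from 4 to 5. Sis in negative ileum against jejunum lost its call under 5 settings (adjusted p of 0.050 to 0.36), Lct in the ileum against duodenum interaction (0.070) and Treh in positive ileum against jejunum (0.092) with library size alone, and Treh in negative colon against ileum with the compared libraries alone (0.055).

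With each library left out in turn, log2 fold changes that crossed 0 ranged as follows: Lct in the colon -0.29 to 0.59, Mme in the colon -0.054 to 0.50, Anpep in the duodenum -0.60 to 0.42, Mep1a in the duodenum -0.26 to 0.35, Treh in the duodenum -0.044 to 1.17 and Anpep in the colon -0.15 to 0.79. Relative to structure they were Sis in the ileum -0.14 to 0.73, Dpp4 in the ileum -0.027 to 0.68, Mep1b in the ileum -0.14 to 0.59, Lct in the duodenum -0.11 to 0.29, Mme in the jejunum -0.063 to 0.53 and Dpp4 in the jejunum -0.45 to 0.034. Counts of members ranged as follows: higher in the duodenum 0 to 1, higher in the colon 4 to 5, lower in the colon 0 to 1, lower in the duodenum 0 to 1, differing in the positive ileum against jejunum 2 to 4 and differing in the interaction ileum against jejunum 0 to 1. Relative to structure the counts were higher in the jejunum 0 to 2, higher in the ileum 1 to 3, higher in the colon 1 to 3, lower in the duodenum 3 to 7, lower in the jejunum 0 to 2 and lower in the colon 3 to 5. The positive ileum against jejunum count was lowest without Ileum positive replicate 1 and the interaction count highest without Jejunum positive replicate 3. Mep1a in negative colon against ileum lost its call without Colon negative replicate 2. The cause of these changes was not tested.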
